A study of Ovis aries with 12 samples.

Results

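The cytoplasmic ribosome was followed through its protein genes in the isthmus of the oviduct, sampled from 12 Small-Tailed Han ewes. Members were the genes whose symbol starts with RPL or RPS and a digit, or is RPSA, RPLP0, RPLP1 or RPLP2. The RPS6K kinases were left out, and a mean of at least 1 FPKM over the 12 libraries was asked for. FPKM counts fragments relative to transcript length and to all mapped fragments, and the values of the transcripts paired with a gene were summed. By this rule 64 of the 10771 genes with a paired transcript were taken, 37 of the large subunit (RPL and RPLP) and 27 of the small subunit (RPS and RPSA) by their symbols. The reference holds 82 such symbols. Of these, 15 had no paired transcript and were not analysed here (RPL12, RPL13, RPL14, RPL22, RPL37A, RPL39, RPL5, RPL7A, RPLP0, RPS16, RPS2, RPS28, RPS4X, RPS7 and RPS9), and 3 stood under 1 FPKM. RPL3L, the paralog of RPL3 known from human and mouse muscle, reached at most 0.283 FPKM and RPL10L, known from the testis of mice, at most 0.258 FPKM. RPL21 was listed at 0 in every library. The member just inside the limit was RPS15A, with a mean of 4.57 FPKM, and the symbol just outside was RPL3L, with 0.109 FPKM.

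The ewes carried the *FecB* BB genotype (M) or the *FecB* ++ genotype (w), BB being homozygous for the *BMPR1B* mutation that raises ovulation rate and ++ the wild type. They were killed in the follicular phase (F), 45 to 48 h after a progesterone device (CIDR) was removed, or in the luteal phase (L), on day 9 after removal. All ewes had carried the device for 12 days, and ages of 2.5 ± 0.5 years and weights of 70 ± 5 kg were given for the selected ewes. The 4 groups were MF, ML, wF and wL, with 3 ewes each. The comparisons ask how the phases differ within a genotype and how the genotypes differ within a phase.

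Ribosomes consist of ribosomal RNA and a set of proteins, nearly all present once per particle, so their genes are expressed at similar high levels in most cells. The small subunit reads the mRNA and the large subunit joins amino acids. Ribosomal protein mRNAs begin with a terminal oligopyrimidine (TOP) tract, through which the kinase mTORC1 and the RNA-binding protein LARP1 set how much of them is translated. Their mRNA level is therefore not a measure of protein synthesis. In the oviduct, secretory epithelium makes much protein for the luminal fluid, beside ciliated cells, stroma and smooth muscle. All these cells contribute ribosomal protein mRNA to one tissue library, and fewer cells of a type cannot be told apart from less RNA per cell.

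The libraries differ in ways that bear on every level given here. FPKM over all 63643 transcripts summed to between 423993 and 456531 in MF and to between 349733 and 371526 in ML. The sums lay between 409016 and 432223 in wF and between 379288 and 421341 in wL. The paired genes held 65.9 to 67.4% of that sum in MF and 58.5 to 61.4% in ML. The paper gives mean numbers of clean reads per group, which lay close together. For transcripts of low value, MF1 was divided by each other library, and only 2.20 to 3.75% of these transcripts share the most frequent ratio. This ratio was between 0.952 and 1.02 for MF2 and MF3 and between 0.670 and 0.772 for ML. It was between 0.754 and 1.15 for wF and between 0.766 and 0.945 for wL. At this ratio the low values of MF1 were thus smaller than those of ML. Smooth muscle markers (7 of 12 listed were tested) summed to between 418 and 1437 FPKM in MF and between 935 and 6290 FPKM in ML, and to between 1328 and 5784 FPKM in wF and between 498 and 3004 FPKM in wL. Ciliated markers (10 of 12 tested) summed to between 488 and 792 FPKM in MF and between 45.4 and 606 FPKM in ML, and to between 175 and 621 FPKM in wF and between 264 and 930 FPKM in wL. The only ciliated marker at 0 was SPAG6, in ML3. Of the markers of general and secretory epithelium, 3 of 9 were tested, and oviductin was not among them. Their sum lay between 656 and 688 FPKM in MF and between 106 and 578 FPKM in ML, and between 347 and 741 FPKM in wF and between 276 and 782 FPKM in wL. Of 3 mesothelium markers only UPK1B was tested, at 124 to 174 FPKM in MF, against 1.22 to 21.3 FPKM in ML. ML2, ML3, wF2 and wL2 had the 4 highest sums of smooth muscle markers, and results are also given without them, which leaves ML1 alone in ML. *BMPR1B* was read at 3.6 to 28.1 FPKM, which does not check a genotype that rests on a point mutation.

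Ribosomal protein genes were among the most abundant mRNAs of the isthmus. They made up 52 of the 100 genes of highest mean FPKM among the genes with a paired transcript, which hold 67.6% of mRNA FPKM. Their means ran from 4.57 to 3002 FPKM with a median of 882 FPKM. The middle part of the set lay close together, between quartiles of 494 and 1222 FPKM. Means above 1000 FPKM were seen in 27 members, 30 lay between 100 and 1000 FPKM, and 7 were below 100 FPKM.

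**Figure D1:**
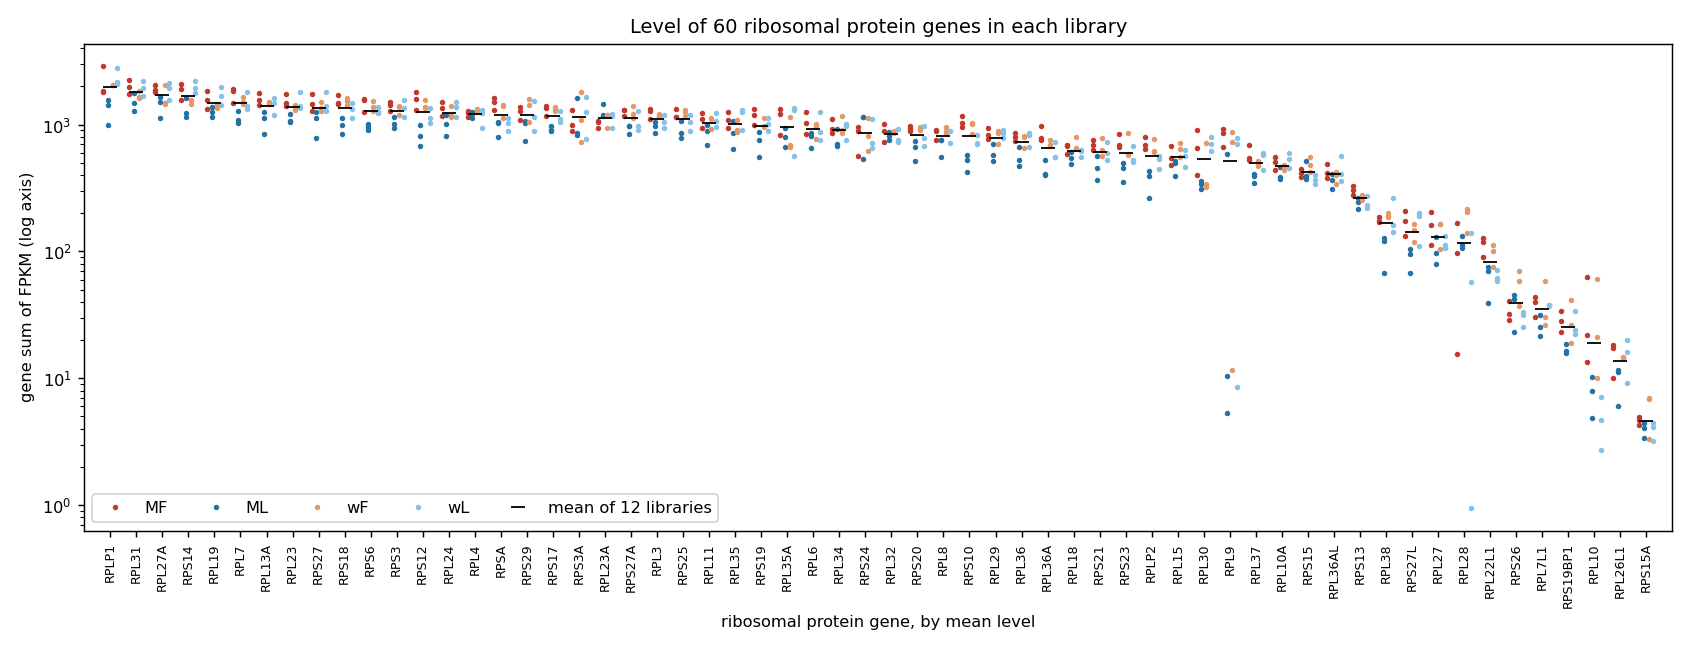
Gene sums of FPKM (log axis) of 60 of the 64 ribosomal protein genes in each library, ordered by mean; points are libraries coloured by group, and bars are means of 12 libraries. Most genes lie within a narrow band, and RPL9, RPL28 and RPL10 have single libraries far from their mean.

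Among the members of highest mean stood several of the large subunit. RPLP1, of the acidic stalk that recruits elongation factors, had a mean of 1975 ± 524 FPKM. RPL31 had 1791 ± 278 FPKM and RPL27A 1718 ± 309 FPKM. The SDs of these 3 genes exceed the steps between their means.

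Several genes were read far below the rest. RPS15A, a regular part of the small subunit, had 4.57 ± 1.23 FPKM (SD, n = 12). RPL10, which joins the large subunit late in its maturation, had 18.9 ± 20.7 FPKM, and RPS26, which lines the mRNA exit channel, had 38.9 ± 13.6 FPKM. Each of these values is that of 1 paired transcript. RPL26L1, RPL7L1 and RPL22L1 are paralogs with 13.7 ± 4.12, 35.03 ± 9.90 and 83.1 ± 26.7 FPKM. RPS19BP1 had 25.2 ± 7.80 FPKM. It fits the symbol rule, but encodes a protein that binds RPS19 and is not a ribosomal protein.

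The share of the transcriptome given to ribosomal protein genes was close between groups. Per library, members held 20.1, 22.8 and 21.7% of the gene-paired FPKM in MF, 19.8, 22.3 and 21.7% in ML, 20.3, 22.7 and 21.2% in wF and 23.8, 24.6 and 20.2% in wL. The mean of MF was 21.5 ± 1.39%, against 21.3 ± 1.30% for ML, and that of wF was 21.4 ± 1.20%, against 22.9 ± 2.39% for wL (SD, n = 3). All 4 groups overlapped. Over all transcripts of the table, MF had a share of 14.4 ± 1.01%, against 12.7 ± 1.07% for ML, and wF had 13.9 ± 0.922%, against 14.7 ± 1.46% for wL. The sum of the members' FPKM did part in *FecB* BB ewes. It was 56640 to 70213 FPKM in MF and 40493 to 50814 FPKM in ML, while wF (55867 to 63162) and wL (50868 to 65898) overlapped.

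In *FecB* BB ewes most ribosomal protein mRNAs had higher values in MF than in ML, and a few of them passed the test. The median log2 change of the 64 members was 0.47 for MF against ML, beside 0.06 over all 8676 genes tested. Of the members, 58 lay above 0 and 6 below. On the log2 scale the member median of a library was 9.80, 10.03 and 9.87 in MF and 9.22, 9.68 and 9.58 in ML, and the groups did not overlap. The pooled SD of these medians within groups was 0.16. Large subunit genes had a median change of 0.44 and small subunit genes of 0.50. MF and ML did not overlap for 37 members that were higher and 2 that were lower in MF, or 57.8 and 3.12% of the members, beside 16.5 and 14.4% of all genes tested.

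**Figure D2:**
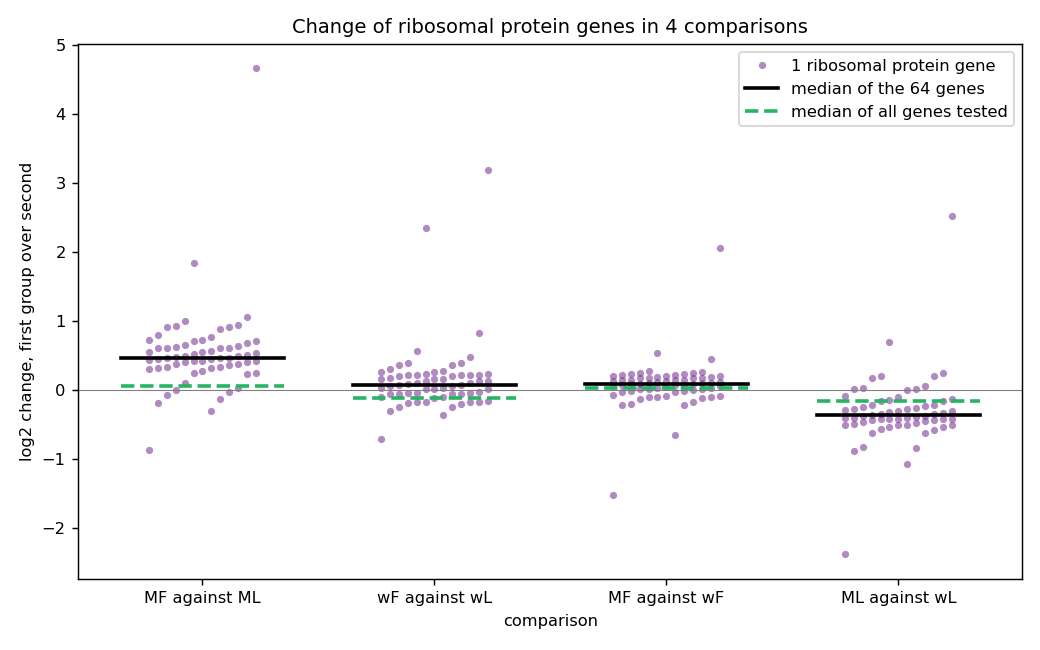
Log2 change of each ribosomal protein gene (points) in 4 comparisons, first group over second, from the fit of log2(FPKM + 0.1); solid lines are medians of the 64 genes and dashed lines medians of all genes tested. The medians are 0.47 and 0.06 for MF against ML and -0.37 and -0.16 for ML against wL; horizontal spread within a comparison has no meaning.

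In limma with Benjamini-Hochberg adjustment over all genes, 3 members passed an adjusted p of 0.05 as higher in MF and 0 as lower, beside 1.52 and 0.922% of all genes tested. At an unadjusted p below 0.05, 32 members were higher and 0 lower in MF, beside 14.2 and 11.3% of all genes. RPS10, a small subunit protein that is ubiquitinated when ribosomes collide, rose most surely. It was read at 1037, 1164 and 953 FPKM in MF and at 424, 571 and 523 FPKM in ML, so that every MF library was above every ML library. Its log2 change was 1.06 (SE 0.18, adjusted p = 0.037), and it was the only member to pass that also reached a log2 change of 1. RPLP2, the partner of RPLP1 in the stalk, had 643, 801 and 695 FPKM in MF and 266, 429 and 396 FPKM in ML. The groups were again apart, with a log2 change of 0.996 (SE 0.21, adjusted p = 0.046). RPL36A, a large subunit protein, had 780, 971 and 756 FPKM in MF and 409, 521 and 401 FPKM in ML. Its log2 change was 0.92 (SE 0.18, adjusted p = 0.046). RPS12, known in flies for its part in cell competition, missed the threshold. It had 1312, 1796 and 1591 FPKM in MF, against 675, 998 and 813 FPKM in ML (log2 change 0.93, SE 0.21, adjusted p = 0.052).

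These 3 calls were lost in several other fits, in some of which nearly all calls among all genes were lost too. As first fitted, 132 of all genes passed as higher and 80 as lower. In a fit of only the 6 MF and ML libraries 0 members passed, and 6 genes were higher and 4 lower. The count was also 0 without MF1, MF2, ML1, ML3, wF1, wF3, wL1 or wL3, 1 without ML2, and 2 without MF3. Over all genes, 1 was higher and 1 lower without MF1, and 1 was higher and 0 lower without MF2. Without ML2, ML3, wF2 and wL2 together, ML rested on ML1 alone, the library of lowest member median (9.22 on the log2 scale). The median change of the members was then 0.67, and 60 of 64 lay above 0. With the smooth muscle markers as a covariate the median was 0.52 and with the ciliated markers 0.51, and 0 members passed in either fit. Over all genes, 1 was higher and 0 lower with the smooth muscle markers, and 57 and 11 with the ciliated markers. The part of the cell type markers, UPK1B included, in the shift was not tested beyond these fits.

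**Figure D3:**
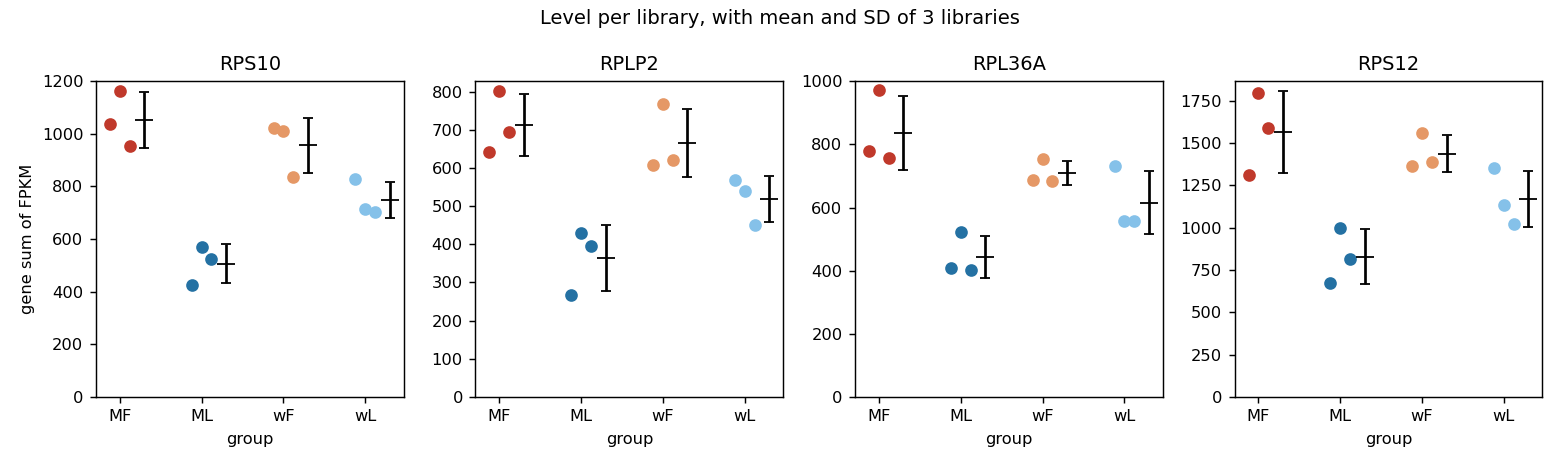
Gene sums of FPKM of RPS10, RPLP2, RPL36A and RPS12 in each library (points) by group, with mean and SD of 3 libraries to the right of the points. In all 4 genes the MF libraries lie above the ML libraries. wF and wL lie closer together, but in RPS10, RPLP2 and RPS12 the wF libraries also lie above the wL libraries.

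The 6 members that ran against the set in *FecB* BB ewes included RPL23A, RPL28, RPS24, RPS15 and RPS26, and 0 of the 6 passed as deposited. RPL23A, which sits at the exit of the peptide tunnel, was read at 934, 1074 and 1057 FPKM in MF and at 1180, 1456 and 1165 FPKM in ML. MF lay wholly below ML, with a log2 change of -0.31 (SE 0.19, adjusted p = 0.33). RPS24 had 566, 884 and 962 FPKM in MF and 540, 1150 and 1154 FPKM in ML, with overlap. Its direction was higher in MF without ML2, ML3, wF2 and wL2 (log2 change 0.54), where ML1, its lowest ML library, stood alone.

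The size of the common shift depended on how libraries were scaled. FPKM as deposited gave a median of 0.47 for the members against 0.06 for all genes, and equal medians over genes gave 0.46 against 0.05. Rescaling each library to the same FPKM sum gave 0.17 against -0.22, with 51 of 64 members above 0. Quantile normalization, which gives all libraries the same distribution of values, left 0.04 against -0.04, with 36 of 64 members above 0. Under it 2 members passed as higher (RPS10 and RPLP2) and RPL23A passed as lower in MF (log2 change -0.74, adjusted p = 0.040), beside 1.23 and 1.35% of all genes. The members' median stood above that of all genes by 0.41, 0.41, 0.39 and 0.08 in these scalings. Equal medians and equal FPKM sums move all genes of a library alike, so they could hardly change this distance. Quantile normalization could change it, and there it was 0.08. It gives the top ranks of every library the same values, and members made up 52 of the 100 genes of highest mean FPKM. A shift shared by the members is thus drawn toward 0 by this scaling, so the 0.08 cannot decide whether there was one.

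**Figure D4:**
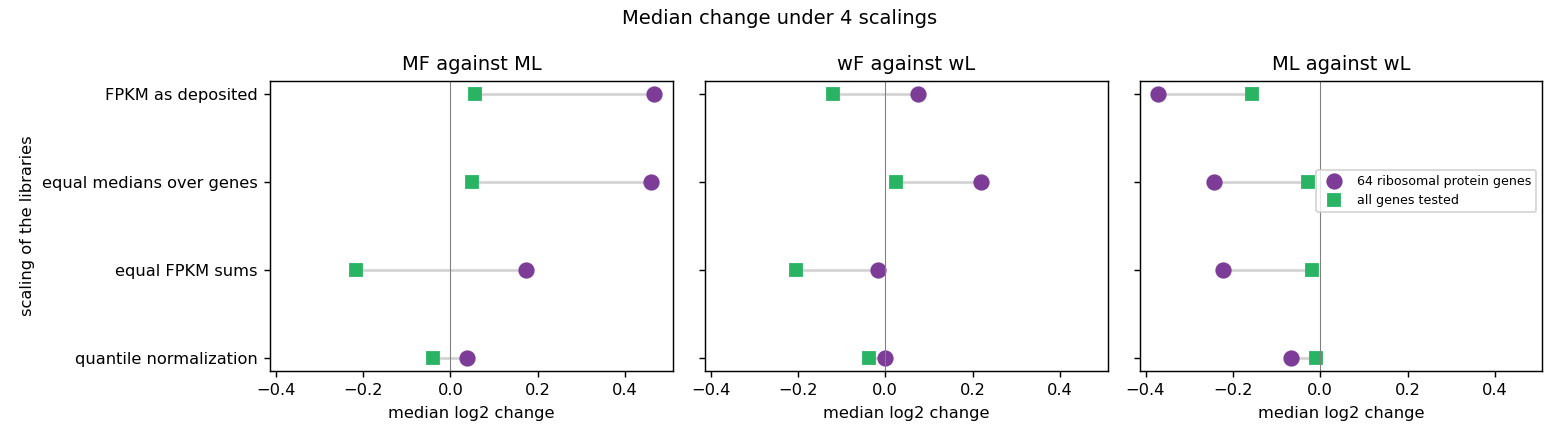
Median log2 change of the 64 ribosomal protein genes (circles) and of all genes tested (squares) for MF against ML, wF against wL and ML against wL under 4 scalings of the libraries. For MF against ML the members' median is 0.47 as deposited and 0.04 after quantile normalization.

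Relative to the other ribosomal protein genes, a few members still differed between the phases. With the member median of each library taken off, 3 members were higher and 1 was lower in MF than in ML at an adjusted p below 0.05, beside 0.795 and 9.65% of all genes, so that lower calls were common on this scale. RPS10 was higher by 0.65 (SE 0.14, adjusted p = 0.028), RPLP2 by 0.59 (SE 0.13, adjusted p = 0.028) and RPS12 by 0.52 (SE 0.14, adjusted p = 0.043). RPL23A changed by -0.71 on this scale (adjusted p = 0.028). RPL36A did not pass here (0.51, SE 0.16, adjusted p = 0.059).

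In *FecB* ++ ewes no member passed between the phases. The median change of the members was 0.08 for wF against wL, beside -0.12 over all genes tested, with 41 members above 0 and 23 below. The sign of the members' median turned under equal FPKM sums (-0.02) and quantile normalization (-0.00087), and without wL3 (-0.0080). In limma 0 members passed, beside 0% of all genes (smallest adjusted p of a member 0.49), and 2 were higher and 0 lower at an unadjusted p below 0.05, beside 2.82 and 5.97% of all genes. wF and wL did not overlap for 10 members higher and 2 lower in wF, beside 4.31 and 10.7% of all genes. RPS10, RPLP2 and RPS12 were among the 10. RPL10 came nearest to the threshold. It had 21.0, 10.03 and 60.1 FPKM in wF and 2.74, 7.13 and 4.70 FPKM in wL (log2 change 2.34, SE 0.70, adjusted p = 0.49). The lowest wF library stood just above the highest wL library. RPS26 had 36.8, 69.5 and 58.1 FPKM in wF, against 31.6, 33.4 and 25.2 FPKM in wL (log2 change 0.83, SE 0.30, adjusted p = 0.50). RPS15 had 419, 559 and 484 FPKM in wF and 400, 367 and 342 FPKM in wL (log2 change 0.39, SE 0.18). RPS14, which is needed to finish the small subunit, was the nearest to the threshold among those lower without overlap. It had 1557, 1569 and 1446 FPKM in wF, against 2223, 1930 and 1769 FPKM in wL (log2 change -0.37, SE 0.21, adjusted p = 0.65). RPL10A, of the large subunit, had 458 ± 20.8 FPKM in wF and 533 ± 71.5 FPKM in wL, with overlap. RPL19, also of the large subunit, had 1409 ± 44.5 FPKM in wF and 1691 ± 276 FPKM in wL, with overlap.

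Whether the phase difference itself differed between genotypes was tested as an interaction, and 0 members passed (smallest adjusted p 0.37), beside 0.0115% of all genes. At an unadjusted p below 0.05, 11 members had a larger and 0 a smaller follicular excess in *FecB* BB, beside 8.32 and 4.7% of all genes. The median interaction of the members was 0.50, beside 0.20 over all genes. RPL30, whose yeast counterpart controls the splicing of its own transcript, had the smallest p. It was read at 649, 404 and 910 FPKM in MF and 308, 358 and 343 FPKM in ML, and at 342, 716 and 323 FPKM in wF and 801, 706 and 617 FPKM in wL. MF lay above ML, while wF overlapped wL (interaction 1.60, SE 0.49, adjusted p = 0.37).

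With both genotypes pooled, RPS10 was the 1 member that passed as higher in the follicular phase and 0 passed as lower, beside 0.98 and 0.496% of all genes tested. Over the 6 follicular libraries it ran from 835 to 1164 FPKM (median 1017) and over the 6 luteal ones from 424 to 828 FPKM (median 637). The phases did not overlap (log2 change 0.71, SE 0.13, adjusted p = 0.037). RPLP2 ran from 607 to 801 FPKM in follicular and from 266 to 567 FPKM in luteal libraries, also apart (log2 change 0.68, SE 0.15, adjusted p = 0.056). These 2 were the only members without overlap over all 12 libraries, or 3.12%, beside 0.864% of all genes, and 0 members were lower without overlap, beside 1.82% of all genes. RPL36A (0.56, SE 0.13, adjusted p = 0.065) and RPL10 (2.09, SE 0.50, adjusted p = 0.066) followed with overlap. In limma RPS10 did not pass when any 1 of 10 libraries was left out, all but MF3 and ML3 (adjusted p 0.044 to 0.10 over the 12 leave-outs). Without ML2, ML3, wF2 and wL2, which left only ML1 in ML, its log2 change was 0.79. RPS24 and RPS3A stood near 0 in this contrast, with -0.07 (SE 0.26) and -0.02 (SE 0.29). Both turned direction under other settings. The median change of the members was 0.26, beside -0.04 over all genes.

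Between genotypes in the follicular phase no difference of a member was detected. The median change was 0.09 for MF against wF, beside 0.02 over all genes. In limma 0 members passed, beside 0.0231% of all genes. At an unadjusted p below 0.05, 0 members were higher and 0 lower, beside 1.99 and 1.15% of all genes. MF and wF did not overlap for 4 members higher and 2 lower in MF, beside 5.16 and 3.71% of all genes. RPL37 had 527, 684 and 546 FPKM in MF, against 475, 518 and 483 FPKM in wF (log2 change 0.24, SE 0.17). RPS13 had 306, 331 and 280 FPKM in MF, against 276, 278 and 254 FPKM in wF (log2 change 0.18, SE 0.14). RPS26 had 31.8, 40.9 and 28.9 FPKM in MF, with overlap (log2 change -0.66, SE 0.30). The smallest adjusted p of a member was 0.997 in limma.

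In the luteal phase most members were read lower in *FecB* BB than in *FecB* ++ ewes, none of them past the test. The median change was -0.37 for ML against wL, beside -0.16 over all genes, with 10 members above 0 and 54 below. In limma 0 members passed, beside 0% of all genes (smallest adjusted p of a member 0.38), and 17 were lower and 0 higher at an unadjusted p below 0.05, beside 9.22 and 3.84% of all genes. ML and wL did not overlap for 0 members higher and 23 lower in ML, beside 4.83 and 13.3% of all genes. RPS27L, a paralog of RPS27 that p53 induces in human cells, had 104, 95.8 and 67.1 FPKM in ML, against 200, 110 and 189 FPKM in wL (log2 change -0.88, SE 0.27). RPL38, which in mice is needed for translation of a group of Hox mRNAs, had 127, 120 and 68.0 FPKM in ML, against 265, 143 and 161 FPKM in wL (log2 change -0.85, SE 0.27). RPLP1 had 1431, 1572 and 987 FPKM in ML, against 2770, 2074 and 2171 FPKM in wL (log2 change -0.83, SE 0.26). RPS10 was lower by this reading too (log2 change -0.57, SE 0.18), with 424, 571 and 523 FPKM in ML, against 828, 713 and 703 FPKM in wL. The adjusted p of these 4 was 0.38. Quantile normalization left a median of -0.07, and without ML2, ML3, wF2 and wL2 it was -0.55, with ML1 alone in ML. ML takes part in both comparisons in which the members shifted, and its libraries had the lowest FPKM sums.

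For most members the level relative to the other ribosomal protein mRNAs varied little over the 12 libraries. Between any pair of the libraries, the order of the 64 levels had a Spearman rho of 0.886 to 0.978 (median 0.936 over 66 pairs). Each gene has the same length and transcript models in every library, and the levels span a wide range, which bears on this rho. With the member median of each library taken off, the SD over 12 libraries had a median of 0.18 on the log2 scale, and it was under 0.2 in 37 members, 0.2 to 0.6 in 24 and above 1 in 3. RPL8 and RPL3, both near the site of peptide bond formation, had the smallest SDs of 0.07 and 0.08. RPL13A, which can leave the ribosome to silence inflammatory mRNAs in human cells, had 0.09. RPL8 kept within -0.23 and 0.02 of the library median, and RPL3 within 0.20 and 0.52.

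**Figure D5:**
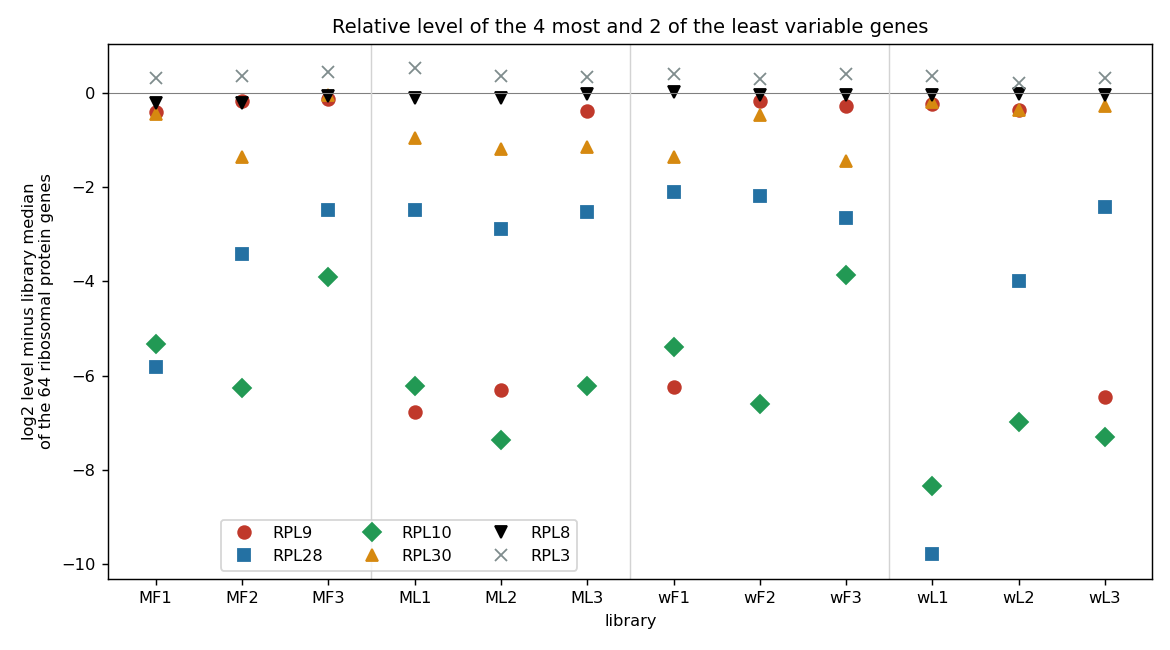
Log2 level of 6 ribosomal protein genes minus the library median of the 64 genes, for each of 12 libraries. RPL8 and RPL3 keep within narrow bands, and RPL9 is between -0.42 and -0.13 in 8 libraries and between -6.78 and -6.24 in ML1, ML2, wF1 and wL3.

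A few members broke these proportions, and they did so in single libraries of several groups. RPL9 had 667, 926 and 856 FPKM in MF, 5.33, 10.3 and 581 in ML, 11.6, 873 and 725 in wF and 778, 702 and 8.51 in wL. RPL9 was thus low in ML1, ML2, wF1 and wL3 and high in the other 8 libraries (SD of the relative level 3.04). RPL28 had 15.7, 96.7 and 168 FPKM in MF, 105, 111 and 133 in ML, 204, 215 and 140 in wF and 0.941, 57.0 and 140 in wL. Its lowest library was wL1 (SD 2.22). RPL10, described above, had an SD of 1.35, with its highest values of 62.5 FPKM in MF3 and 60.1 FPKM in wF3. RPL30 had an SD of 0.52. In MF against ML, the large log2 change of RPL9 (4.66, SE 2.26, adjusted p = 0.22) comes from ML1 and ML2.

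Of the 7 members with more than 1 paired transcript, some drew their FPKM from different transcripts in different libraries. RPL34 was carried by 1 transcript in 11 libraries. In wF2 that transcript gave 26.5 FPKM and the other 1152 FPKM, or 97.8% of the gene there. In the other libraries that second transcript had at most 18.2 FPKM. The gene sum in wF2 was the highest, with 1178 FPKM against 674 to 1105 FPKM elsewhere. One RPL35A transcript had 1135 FPKM in MF1, 517 FPKM in wF1 and 1268 FPKM in wL3, and at most 0.141 FPKM in the other 9 libraries. The RPL35A sum varied between 566 and 1362 FPKM. RPL28 is carried by 1 transcript of mean 103 FPKM that was under 0.01 FPKM in MF1 and wL2 and at 0.692 FPKM in wL1. RPL19, RPL6, RPS21 and RPL7L1 also have more than 1 paired transcript, and in RPL19 the main one held 91.9 to 97.3% of the gene.

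Paralogs were read apart from the gene each resembles where both were measured, although reads of near-identical copies may be divided between them. RPL36AL had 426 ± 56.2 FPKM in MF against 361 ± 50.3 in ML, and its relative RPL36A had 836 ± 118 against 443 ± 67.5 FPKM (SD, n = 3). RPS27L had 171 ± 38.5 FPKM in MF against 88.9 ± 19.3 in ML (log2 change 0.94, SE 0.27, adjusted p = 0.084), and RPS27 had 1487 ± 230 against 1051 ± 241 FPKM. RPL7L1 had 38.0 ± 6.82 FPKM in MF against 26.1 ± 5.20 in ML, and RPL7 had 1734 ± 228 against 1133 ± 131 FPKM. RPL22L1, whose counterpart RPL22 was not analysed here, had 112 ± 19.7 FPKM in MF against 61.4 ± 19.6 FPKM in ML. It had 95.4 ± 18.9 FPKM in wF, against 63.9 ± 6.73 FPKM in wL, and neither pair overlapped. Its log2 change was 0.91 (SE 0.26, adjusted p = 0.082) in MF against ML. RPL26L1 had 15.3 ± 4.52 FPKM in MF against 9.63 ± 3.09 in ML, with overlap.

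Ribosomal proteins outside the symbol rule had smaller log2 changes than the member median in MF against ML. FAU, which encodes a small subunit protein fused to a ubiquitin-like one, had 594, 842 and 675 FPKM in MF and 487, 657 and 567 FPKM in ML (log2 change 0.30, SE 0.19, adjusted p = 0.34). RACK1, a scaffold on the small subunit, had 1668 ± 240 FPKM in MF and 1527 ± 375 FPKM in ML (log2 change 0.15, SE 0.24). MF overlapped ML in both genes.

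The rest of the translation apparatus was mixed in *FecB* BB ewes. Over all genes tested in MF against ML, 53.2% lay above 0 with a median of 0.06, and 1.52% passed as higher and 0.922% as lower. Of 53 mitochondrial ribosomal protein genes, 49 lay above 0 for MF against ML with a median of 0.38, and 1 passed as higher and 0 as lower. That gene, MRPS30, had 17.7 ± 3.06 FPKM in MF and 8.07 ± 0.768 FPKM in ML (log2 change 1.11, SE 0.25, adjusted p = 0.049). MRPL27 had 40.6 ± 4.07 FPKM in MF and 24.2 ± 5.37 FPKM in ML (log2 change 0.76, SE 0.18, adjusted p = 0.055). For wF against wL the median of the mitochondrial ribosomal protein genes was -0.04 and for ML against wL -0.40, beside -0.12 and -0.16 over all genes.

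Of the genes listed for other steps, 1 passed in MF against ML, EIF4EBP2, and it was lower in MF. Over all genes tested, 1.52% passed as higher and 0.922% as lower. The median over all genes was 0.06, and 53.2% of them lay above 0. The medians of the lists were 0.06 for 27 initiation factors, 0.00 for 8 elongation and release factors and 0.06 for 42 ribosome biogenesis genes. They were 0.14 for 12 genes of rRNA transcription, 0.26 for 6 genes of ribosome quality control and -0.07 for 16 other TOP mRNAs. Of 9 genes that control TOP mRNAs, 8 lay below 0 with a median of -0.32. EIF4EBP2, a repressor of cap-dependent translation that mTORC1 switches off, passed as lower, with 32.7 ± 10.4 FPKM in MF and 72.4 ± 13.9 FPKM in ML (log2 change -1.18, SE 0.23, adjusted p = 0.043). TIAL1, which binds TOP mRNAs under stress in human cells, had 8.42 ± 2.24 FPKM in MF and 14.6 ± 1.88 FPKM in ML (log2 change -0.81, SE 0.23, adjusted p = 0.077). For ML against wL the median over all genes was -0.16, and 38.0% of them lay above 0. There the medians of the lists were -0.36 for ribosome biogenesis (41 of 42 genes below 0), -0.36 for rRNA transcription and -0.24 for initiation. They were -0.07 for elongation and release, 0.01 for other TOP mRNAs, 0.02 for quality control and 0.10 for the control of TOP mRNAs.

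Among the TOP mRNAs that encode other proteins, NACA, of the nascent polypeptide-associated complex, had 414, 684 and 419 FPKM in MF and 104, 401 and 51.2 FPKM in ML (log2 change 1.93, SE 0.58, adjusted p = 0.089). EIF3F, an initiation factor subunit, had 22.4 ± 5.24 FPKM in MF and 33.1 ± 4.09 FPKM in ML (log2 change -0.58, SE 0.23). The initiation factors EIF3K and EIF1AX had log2 changes of 0.59 (SE 0.17) and 0.99 (SE 0.30). The elongation factors EEF1B2 and EEF2 had 0.37 (SE 0.20) and -0.35 (SE 0.20). What was paired with EEF1D was listed at 0 in every library. The paper reports EEF1D as differing between the genotypes and high in *FecB* ++ ewes. Whether unpaired transcripts belong to EEF1D was not tested.

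Of the genes that build ribosomes, TSR2, known in yeast as a chaperone of RPS26, had 26.2 ± 3.14 FPKM in MF and 16.0 ± 2.57 FPKM in ML (log2 change 0.71, SE 0.19, adjusted p = 0.070). RSL24D1, a large subunit assembly factor, had a log2 change of 0.62 (SE 0.22). POLR1C, a subunit shared by RNA polymerases I and III, had 13.2 ± 2.57 FPKM in MF and 7.84 ± 1.89 FPKM in ML (log2 change 0.76, SE 0.25). MYC, which drives transcription of ribosome genes, had 5.12 ± 1.49 FPKM in MF and 11.1 ± 2.46 FPKM in ML (log2 change -1.13, SE 0.47, adjusted p = 0.18). In ribosome quality control, USP16 had a log2 change of 2.15 (SE 0.65) and RNF10, which ubiquitinates small subunit proteins, of -0.68 (SE 0.26).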

How the data were processed

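RNA of the oviduct isthmus was extracted with TRIzol, enriched for poly-A RNA, depleted of ribosomal RNA and sequenced in 12 libraries. Per the labels and methods, the authors trimmed reads with fastp, aligned them to the sheep genome Oar_v3.1 with HISAT2, and deposited FPKM per transcript from StringTie; tool versions are not given in the sources used here. FPKM is divided by length and library size, so the fragments behind a single value are not known, and low values rest on few of them. Mean read depth per group is given in the paper. Reads that fit several near-identical genes or pseudogenes may have been divided among them, which touches many ribosomal protein genes. The columns were matched to samples by title.

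Transcripts were paired with symbols through a newer RefSeq table (assembly ARS-UI_Ramb_v3.0), 853 by accession with version, 14336 ignoring it and 13 by gene identifier, giving 15202 of 43674 mRNA transcripts, which hold 67.6% of mRNA FPKM. The 64 members have 72 transcripts, and no coordinates were used. Genes whose mean reached 0.1 FPKM were tested on log2(FPKM + 0.1), which understates changes of low genes, with limma 3.58.1 (R 4.3.3, trend, 4 group means over 12 libraries) and Benjamini-Hochberg adjustment over all 8676 genes. Passing means an adjusted p under 0.05, and the study's further limit of a log2 change of 1 is given as a count. All tests were two-sided. p values measure the spread between ewes within groups, 3 ewes per group and 1 library each. This spread is estimated over all 4 groups together and drawn toward that of genes of similar level. In the fit of all 12 libraries, wF and wL thus also bear on the p values of MF against ML. Tables used Python 3.11.15, pandas 2.3.3 and matplotlib 3.10.9. The steps were tested on simulated data. Settings are compared in the closing section, where each library was left out in turn.

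The members, gene lists and tests were chosen with earlier results of these data known. Named are the 5 members of highest and 5 of lowest mean, up to 4 per direction and comparison of smallest unadjusted p, the 4 most and 4 least variable relative levels, paralogs with the genes they resemble, RPS19BP1, FAU, EEF1D, *BMPR1B*, and from each other list the 2 genes of smallest p in MF against ML. Some genes that this rule names are not reported here. The transcripts and RACK1 were chosen after their values were seen.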

Additional observations from a re-analysis of the deposited data

Results flagged for a closer look

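Of 68 groups of 6 follicular or 6 luteal libraries looked at, 5 had a library set apart from the other 5 by more than Dixon's 95% limit (0.625 of the range), and chance alone gives about 1 in 20. MF2 was the highest follicular library for RPLP1 (2891 FPKM), RPL36A (971 FPKM) and RPL37 (684 FPKM), and MF2 also had the highest median of all members. The low follicular value of RPL9 was 11.6 FPKM in wF1. RPS15 was highest among the luteal libraries in ML3, with 520 FPKM.

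For RPLP1 the log2 change with phase was above 0 in *FecB* BB (0.70, adjusted p = 0.14) and below 0 in *FecB* ++ (-0.18, adjusted p = 0.87), neither past the test in limma. It had 1793, 2891 and 1854 FPKM in MF against 1431, 1572 and 987 FPKM in ML, and 2048, 2047 and 2064 FPKM in wF against 2770, 2074 and 2171 FPKM in wL, without overlap in either genotype, though the highest wF and the lowest wL library were close. The interaction was 0.88 on the log2 scale and did not pass (adjusted p = 0.37).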

How the results depend on the processing

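The median change of the members kept its direction for MF against ML under every setting, 0.38 to 0.56 with each library left out in turn. It moved to 0.039 with quantile normalization, 0.17 with equal FPKM sums and 0.67 without ML2, ML3, wF2 and wL2, which left only ML1 in ML. For ML against wL it was -0.46 to -0.25 over the leave-outs, -0.067 with quantile normalization and -0.55 without the 4 libraries. For the pooled phases it was 0.22 to 0.31, 0.0025 with quantile normalization and 0.063 with equal FPKM sums. Members passing in MF against ML numbered 0 with only the 6 libraries compared and with the smooth muscle or ciliated covariate, and 0 to 3 over the leave-outs. They numbered 4 with a pseudocount of 1 or a mean FPKM of at least 1, and 2 with equal FPKM sums. In the pooled phases they numbered 2 with a mean FPKM of at least 1, equal FPKM sums, the ciliated covariate or the member median taken off. They numbered 3 with the smooth muscle covariate, 4 with equal medians, and 0 to 1 over the leave-outs. With the replicate number as a replicate block, 0 members passed in MF against ML and 0 in the pooled phases. The labels do not say that the numbers pair the ewes. Deviations from group means correlated at -0.25 to 0.40 between same-numbered libraries (median 0.05, 18 pairs) and at -0.51 to 0.36 between others (median -0.06, 36 pairs). Deviations within a group of 3 are tied to each other, so these values cannot decide whether same-numbered libraries belong together. The counts of 0 in the other comparisons stayed at 0. The cause of these moves was not tested.

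With all transcripts as denominator the members' share was 13.4, 15.4 and 14.3% in MF, 11.6, 13.7 and 12.97% in ML, 12.9, 14.7 and 14.1% in wF and 15.6, 15.4 and 12.99% in wL. Among 37 pairs of a named member and a comparison with 955 other values, 867 kept direction and side of the threshold, 57 lost it, 12 gained it and 19 turned direction. Turned were RPS24 in MF against ML (0.54 without the 4 libraries, 0.38 and 0.25 with the smooth muscle and ciliated covariates, -0.56 to 0.044 over the leave-outs) and in the pooled phases (0.30, 0.042 and 0.089, and -0.25 to 0.048). RPL28 in MF against ML was -1.57 to 0.14 over the leave-outs. With equal medians RPS3A was 0.044 in the pooled phases, where it was -0.19 to 0.13 over the leave-outs. The number of fragments behind each FPKM value is not known, so no counting error can be given. Missing symbols leave the set incomplete.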

Other observations

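For the 7 members whose relative level varied most (SD of at least 0.45), the 1032 transcripts with a mean of at least 50 FPKM were searched for the one that ran most against the gene over the 12 libraries. For RPL26L1 the search returned a transcript of another gene, IQGAP1, with r = -0.92 over the 12 libraries, so such opposition also arises between different genes. The values of r for RPL9, RPL10, RPL30, RPL35A, RPL28 and RPS3A were -0.96, -0.83, -0.78, -0.76, -0.69 and -0.66, each the lowest of the search and given without a test. The search was chosen after the values were seen, and the 3 transcripts described with their values carry no symbol in the table used. For RPL9 it was the transcript XM_012179817.2, at 67.4, 3.7 and 4.5 FPKM in MF, 456.6, 692 and 35.04 in ML, 673, 3.4 and 25.4 in wF and 104, 8.3 and 611 in wL. It was thus high in the same libraries, ML1, ML2, wF1 and wL3, in which RPL9 was near 10 FPKM. The sum of both was 734, 930 and 860 FPKM in MF, 462, 702 and 616 in ML, 684, 876 and 751 in wF and 882, 710 and 619 in wL, with no library set apart.

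For RPL30, XM_012108210.2 was at 25.9, 547 and 36.0 FPKM in MF, 379, 510 and 80.6 in ML, 427, 32.0 and 509 in wF and 64.5, 94.0 and 50.3 in wL. The sum with RPL30 was 675, 951 and 946 FPKM in MF, 687, 868 and 423 in ML, 769, 748 and 833 in wF and 866, 800 and 668 in wL. MF then overlapped ML, unlike RPL30 alone. For RPL10, XM_012141554.1 was at 115 to 174 FPKM in MF and 189 to 193 FPKM in ML, and the sum was 159 to 196 FPKM in MF and 197 to 203 FPKM in ML. For RPL10 the sum was 197, 213 and 145 FPKM in wF and 213, 226 and 152 FPKM in wL. wF then overlapped wL, unlike RPL10 alone. Whether these transcripts belong to the same genes was not tested.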
